A study of Mus musculus with 6 samples.

Results

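The Kruppel-like factor genes *Klf2*, *Klf3*, *Klf4*, *Klf5*, *Klf6*, *Klf7*, *Klf9*, *Klf10*, *Klf12* and *Klf13* were examined for peaks of H3K56ac, acetylated lysine 56 of histone H3, in mouse embryonic stem cells (mESCs). A peak counted as a member if any of its bases lay in the body of 1 of these 10 genes or in the 70 kb on either side, which held for 43 of all 11106 peaks. They were divided into 3 stem cell members (*Klf2*, *Klf4* and *Klf5*, with 16 peaks) and 7 other members (27 peaks).

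All libraries came from the embryonic stem cell line V6.5, which was kept undifferentiated on feeder cells in medium with LIF. Every culture had received a lentivirus, carrying a scrambled shRNA in the Scramble group and an shRNA to *Sirt6*, the gene of a histone deacetylase, in the Sirt6KD group. Each group had 2 H3K56ac ChIP libraries and 1 input library, 6 in all. The deposited peaks formed 1 merged set on mm10 with a score of 0 at every peak, so neither a height nor the group of origin was known. At its own filter, the study lists more peaks for each Sirt6KD library than for either Scramble library. The peaks and widths below thus describe both groups together and not Scramble cells alone. The question of the study, whether loss of SIRT6 raises this mark, could therefore not be addressed, and no value below has a replicate error. The peak set carries no read depth, and the library depths listed by the study were not used here. The labelled cell type was described with its defining markers, chosen with earlier results of these data known. *Pou5f1*, *Nanog*, *Sox2*, *Zfp42* and *Esrrb* had promoter peaks of 2924 to 9909 bp (5 of 5 genes, against 35.7% of all genes). With the peak midpoint within 1 kb of a transcription start as the rule, 3 of 5 had one, against 33.9% of all genes. Of 10 fibroblast genes, chosen because feeder cells are fibroblasts, 0 had a promoter peak, against 35.7% of all genes. A distal peak lay in the window of 1, *Twist2*, against 27.0% of all genes. Only 2 of the 10 had a CpG-rich promoter, a class that carries peaks more often, so these counts cannot tell whether feeder cells contributed.

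Kruppel-like factors are transcription factors with zinc fingers at the carboxyl end that bind GC-rich and CACCC sequences, while their amino-terminal parts recruit activators or repressors. In mESCs, KLF2, KLF4 and KLF5 help to keep cells in the self-renewing state and act together with POU5F1, SOX2, NANOG and ESRRB, while LIF acts on *Klf4* through STAT3. Acetylation of H3K56 lies where DNA enters and leaves the nucleosome, and such acetyl marks are found at active promoters and enhancers.

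Promoter sequences are shown first for a pair of genes whose start lay inside a peak (*Klf2* and *Klf4*) and a pair whose start lay in a gap between peaks (*Klf3* and *Klf13*). They are the bases just before the annotated 5′ end of the gene, from the RefSeq promoter table on GRCm38.p6, which held 8 of the 10 members, all but *Klf5* and *Klf10*. Capitals mark matches to the KLF box GGGNGTGG or its reverse complement, a CACCC-type sequence.
*Klf2* promoter, chr8:72318812-72319032, plus strand: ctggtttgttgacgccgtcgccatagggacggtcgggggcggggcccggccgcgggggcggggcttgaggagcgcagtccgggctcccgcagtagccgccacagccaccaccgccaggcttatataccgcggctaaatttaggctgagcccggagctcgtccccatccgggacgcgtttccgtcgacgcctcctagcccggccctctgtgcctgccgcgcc
*Klf4* promoter, chr4:55532476-55532725, minus strand: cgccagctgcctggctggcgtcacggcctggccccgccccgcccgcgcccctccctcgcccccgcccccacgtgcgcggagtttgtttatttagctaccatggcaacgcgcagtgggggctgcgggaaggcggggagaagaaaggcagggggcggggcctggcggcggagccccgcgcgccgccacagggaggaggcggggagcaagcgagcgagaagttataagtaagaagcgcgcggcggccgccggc
*Klf3* promoter, chr5:64803271-64803387, plus strand: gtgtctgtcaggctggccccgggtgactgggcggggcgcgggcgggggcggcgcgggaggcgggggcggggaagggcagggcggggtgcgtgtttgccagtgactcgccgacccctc
*Klf13* promoter, chr7:63938916-63939165, minus strand: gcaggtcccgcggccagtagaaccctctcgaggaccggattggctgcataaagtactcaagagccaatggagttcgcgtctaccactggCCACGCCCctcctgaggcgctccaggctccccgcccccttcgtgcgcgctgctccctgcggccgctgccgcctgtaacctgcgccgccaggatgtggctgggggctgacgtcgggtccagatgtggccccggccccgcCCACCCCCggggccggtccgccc
The *Klf2* and *Klf4* stretches lay wholly in a peak (100% of bases), and 0% of the *Klf3* and *Klf13* stretches did. Their GC contents were 71.5%, 74%, 79.5% and 71.6% in the order shown. Only *Klf13* among these held the box, at 2 places. Over the full 250 bases before the RefSeq start, 3 of 8 members held it (*Klf7*, *Klf12* and *Klf13*), compared with 15.9% of the 32851 promoter windows in the table. The RefSeq windows of *Klf7* (chr1:64121390-64121639) and *Klf12* (chr14:100149797-100150046) lay inside the gene, after the 5′ end used below, so only the *Klf13* matches were just before that end. A match is a description of the letters and not a binding site.

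Sequences inside the peaks are shown for motifs of the stem cell factors named above, with all matches of the octamer and examples of the others. Each window holds 41 bases of the reference and is written 5′ to 3′ on the strand of the match, with the motif in capitals. Positions in kb are measured from the 5′ end of the gene and are negative upstream. The first 3 hold the ESRRB motif TCAAGGTCA, the next 5 the octamer ATTTGCAT of POU5F1, and the last 4 the palindrome TTCCNGGAA of STAT factors.
*Klf4*, 56 kb, chr4:55476409-55476449, plus strand: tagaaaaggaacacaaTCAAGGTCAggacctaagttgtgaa
*Klf5*, 27.1 kb, chr14:99325736-99325776, minus strand: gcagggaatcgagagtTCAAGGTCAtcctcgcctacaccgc
*Klf9*, -51.1 kb, chr19:23090115-23090155, minus strand: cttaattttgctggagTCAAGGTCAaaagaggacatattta
*Klf5*, 0.896 kb, chr14:99299567-99299607, minus strand: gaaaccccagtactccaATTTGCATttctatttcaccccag
*Klf9*, -50.3 kb, chr19:23090861-23090901, plus strand: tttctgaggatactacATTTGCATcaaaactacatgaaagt
*Klf9*, -0.983 kb, chr19:23140223-23140263, minus strand: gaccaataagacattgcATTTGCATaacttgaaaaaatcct
*Klf13*, 29.5 kb, chr7:63909441-63909481, minus strand: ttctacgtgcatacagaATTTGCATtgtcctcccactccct
*Klf13*, -18.3 kb, chr7:63957238-63957278, minus strand: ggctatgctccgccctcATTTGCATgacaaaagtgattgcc
*Klf4*, 58.3 kb, chr4:55474115-55474155, plus strand: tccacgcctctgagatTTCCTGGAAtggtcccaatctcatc
*Klf5*, 56.2 kb, chr14:99354909-99354949, plus strand: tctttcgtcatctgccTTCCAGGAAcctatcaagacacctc
*Klf3*, 58.9 kb, chr5:64862256-64862296, plus strand: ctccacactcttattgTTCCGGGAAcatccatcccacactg
*Klf9*, -65.2 kb, chr19:23076034-23076074, plus strand: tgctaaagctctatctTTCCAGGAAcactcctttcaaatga
The *Klf5* ESRRB match lay in repeat-masked sequence and the others shown did not. The *Klf4* ESRRB and STAT matches lay in the same 7585-bp distal peak, and the ESRRB match and an octamer of *Klf9* lay in the same 1547-bp distal peak. The *Klf5* octamer lay in an intron, in the promoter peak.

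Peaks were sorted by position. Promoter peaks had a base within 1 kb of an annotated transcription start site (TSS) of the gene, and distal peaks had their midpoint farther than 3 kb from every protein-coding TSS. The 43 peaks comprised 12 promoter peaks, 30 distal peaks and 1 other, the single peak of *Klf10*. Their median width was 953 bp, against 913.5 bp over all peaks. A promoter peak was found at 9 of the 10 genes, all but *Klf10*, compared with 35.7% of the 21938 protein-coding genes. The genes were listed with earlier results of these data known, so this and the following counts describe them and are no test.

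**Figure D1:**
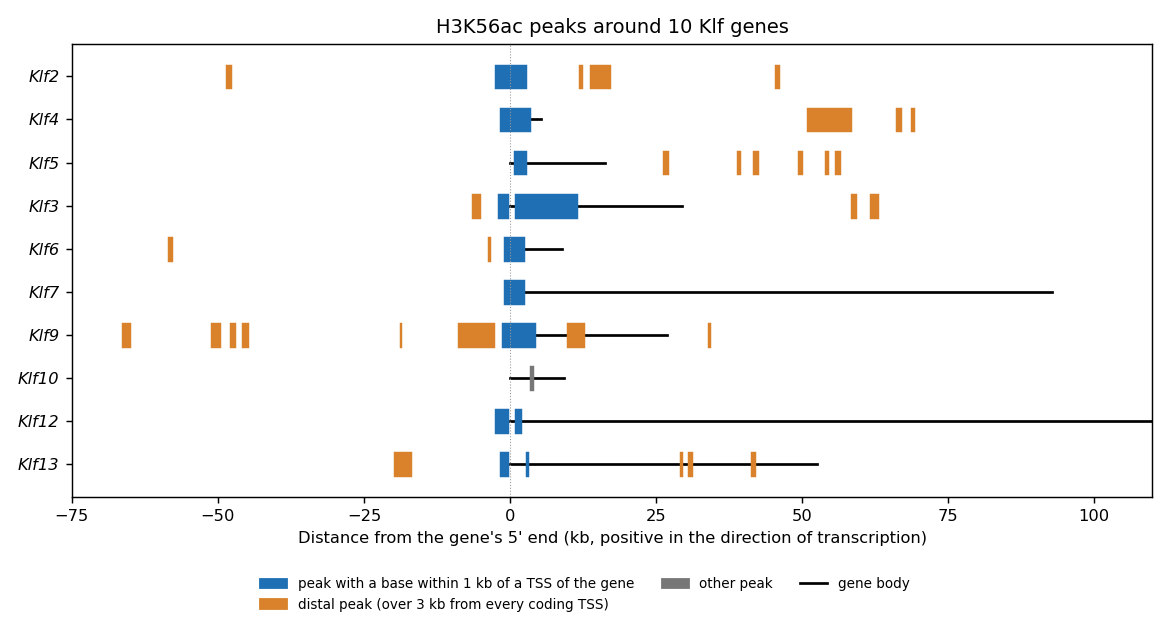
H3K56ac peaks around the 10 *Klf* genes. Boxes are peaks (blue, promoter; orange, distal; grey, other), black lines are gene bodies, and the horizontal axis gives the distance in kb from the 5′ end of the gene, positive in the direction of transcription. The distal peaks of *Klf4* and *Klf5* all lie downstream, those of *Klf9* lie mostly upstream, and *Klf7*, *Klf10* and *Klf12* have none; the body of *Klf12* runs beyond the axis and holds no further peak.

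Of the stem cell members, *Klf2* was covered from end to end. The gene (ENSMUSG00000055148.7, chr8:72319033-72321656, plus strand) lay wholly inside a 5290-bp peak (chr8:72316402-72321691), whose midpoint was 14 bp after the 5′ end. Among all protein-coding genes 61 lay inside 1 peak, or 0.278%. The body of *Klf2* is short, at 2624 bp, whereas the median covered share of the body was 4.28% over genes with a promoter peak. Its 4 distal peaks were centred at -48.2, 12.1, 15.4 and 45.7 kb and were 790, 659, 3360 and 744 bp wide. Only the peaks at 12.1 and 15.4 kb had *Klf2* as the nearest coding gene. The peak at -48.2 kb was nearest to *Ap1m1*, and that at 45.7 kb lay in an intron of *Eps15l1*, a gene with a promoter peak of its own.

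*Klf4*, whose product is among the factors used to reprogram fibroblasts into stem cells, had a 5078-bp promoter peak. The gene (ENSMUSG00000003032.8, chr4:55527143-55532466, minus strand) was covered for 63.7% of its body, and the peak (chr4:55529074-55534151) took in 3 of its 3 TSS. All 3 distal peaks lay downstream, in intergenic sequence nearest to *Klf4* itself. The nearest of them, centred at 54.7 kb (chr4:55474008-55481592), was 7585 bp wide and was the widest distal peak of the 10 genes. It was followed by peaks of 763 bp at 66.5 kb and 361 bp at 68.9 kb. The 763-bp peak was centred 135 bp from the TSS of the non-coding gene *Gm12510*, and 59.6% of the 361-bp peak was repeat-masked. The interval downstream of *Klf4* is known to hold its stem cell enhancers.

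*Klf5* (ENSMUSG00000005148.8, chr14:99298691-99315036, plus strand) had the narrowest promoter peak of the stem cell members, at 2055 bp. That peak (chr14:99299313-99301367) began 622 bp after the 5′ end and covered 0 of 2 annotated TSS, although it lay within 1 kb of them. *Klf5* had 6 distal peaks, the most of the stem cell members, at 26.6, 39.1, 42, 49.6, 54.3 and 56.1 kb. All of them lay downstream in intergenic sequence nearest to *Klf5*. They were narrow, from 465 to 960 bp, and together measured 4288 bp, compared with 8709 bp for the 3 of *Klf4*. The peak at 54.3 kb was centred 779.5 bp from the TSS of the non-coding gene *Gm22984*.

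KLF3 and KLF12 are repressors that bind the corepressor CTBP. *Klf3* (ENSMUSG00000029178.14, chr5:64803388-64832901, plus strand) had the widest peak of all members, of 10592 bp (chr5:64804192-64814783). It began 804 bp after the 5′ end and reached far into the gene, so that 35.9% of the body was covered. A second promoter peak of 1702 bp (chr5:64801270-64802971) ended 417 bp before the 5′ end. The 1220 bp between them held no peak and had a GC content of 75.2%, whereas the peaks on either side had 49.4% and 47.1%. Of its 9 TSS, 3 were covered, all inside the gene. Distal peaks lay at -5.77, 58.8 and 62.3 kb and were 1408, 802 and 1458 bp wide.

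*Klf12* (ENSMUSG00000072294.5, chr14:99870632-100284679, minus strand) had the longest body, 414048 bp, and only 2 peaks, both at its start. They were 2226 bp (chr14:100285097-100287322) and 994 bp wide (chr14:100282793-100283786), with the 5′ end in a gap of 1310 bp between them. The 2226-bp peak was centred 44.5 bp from the TSS of the non-coding gene *Gm41231* and 1530.5 bp from the nearest *Klf12* TSS. The gap had a GC content of 57.5%, compared with 58.5% in the upstream and 45.3% in the downstream peak. None of its 6 TSS was covered, and there were 0 distal peaks in a window of 554048 bp. The share of the body covered, 0.240%, was the lowest of the 10 genes.

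KLF6 and KLF7 are related activators, the first with a broad distribution and the second known for its role in neurons. *Klf6* (ENSMUSG00000000078.7, chr13:5861482-5870394, plus strand) had a 3527-bp peak over its 5′ end (chr13:5860379-5863905), which covered 2 of 3 TSS. Its distal peaks at -58.2 and -3.56 kb were 728 and 303 bp wide. The smaller of them was centred 171 bp from the TSS of the non-coding gene *1700016G22Rik*. *Klf7* (ENSMUSG00000025959.13, chr1:64029447-64122282, minus strand) had a 3326-bp peak over its 5′ end (chr1:64119923-64123248) and no other peak in a window of 232836 bp. That peak covered 3 of 3 TSS but only 2.54% of the long body.

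KLF9, KLF10 and KLF13 bind the SIN3A corepressor. *Klf9*, which responds to glucocorticoid and thyroid hormone, had more distal peaks than any other member. The gene (ENSMUSG00000033863.2, chr19:23141226-23168134, plus strand) carried a 5544-bp promoter peak (chr19:23139906-23145449) over both of its TSS. Its 8 distal peaks were centred at -65.8, -50.5, -47.5, -45.4, -18.8, -5.83, 11.3 and 34.1 kb, and all had *Klf9* as the nearest coding gene. The peak at -5.83 kb (chr19:23132270-23138527) was 6258 bp wide, that at 11.3 kb in an intron 2983 bp, and the others 274 to 1547 bp. Together they measured 14476 bp, more than the distal peaks of any other member. The 6258-bp peak was centred 498.5 bp from the TSS of the non-coding gene *2410080I02Rik*, and the 1350-bp peak at -65.8 kb was centred 382.5 bp from that of *C330002G04Rik*.

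*Klf10*, a gene known for its early response to TGF-beta, was the only member without a promoter peak. The gene (ENSMUSG00000037465.10, chr15:38291463-38300706, minus strand) had a single 490-bp peak (chr15:38296776-38297265) centred in an exon 3.69 kb after the 5′ end. Its centre was 1818.5 bp from the nearest of the 4 TSS, and its window of 149244 bp held 0 distal peaks. *Klf13* (ENSMUSG00000052040.10, chr7:63886351-63938915, minus strand), known as an activator in lymphocytes, had promoter peaks of 1340 bp (chr7:63939294-63940633) and 352 bp (chr7:63935870-63936221). The gap of 3072 bp between them held the 5′ end and had a GC content of 66.8%. None of its 4 TSS was covered. Peaks in its introns lay at 29.3, 30.8 and 41.6 kb, all nearer to the TSS of *E030018B13Rik* than to its own, and 79.2% of the one at 29.3 kb was repeat-masked. An intergenic peak at -18.4 kb (chr7:63955852-63958852) was 3001 bp wide.

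**Figure D2:**
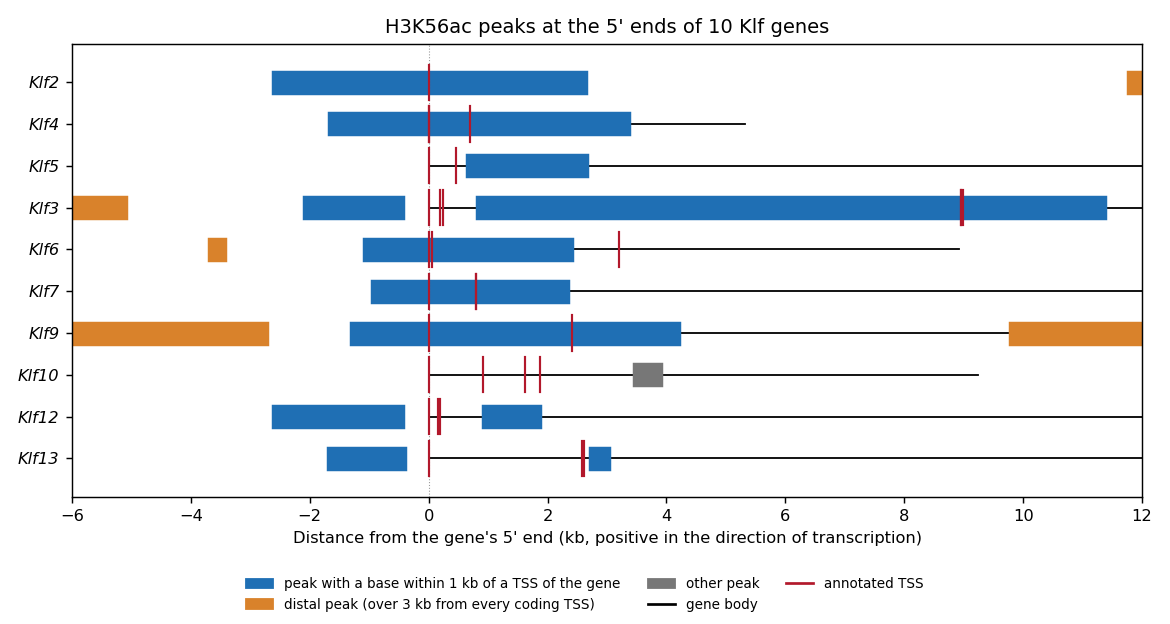
Peaks at the 5′ ends of the 10 *Klf* genes, from 6 kb before to 12 kb after the start. Boxes are peaks (blue, promoter; orange, distal; grey, other), red ticks are annotated TSS and black lines gene bodies. The starts of *Klf2*, *Klf4*, *Klf6*, *Klf7* and *Klf9* lie inside a peak and those of *Klf3*, *Klf12* and *Klf13* between peaks.

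The 5′ end lay inside a peak at 5 genes (*Klf2*, *Klf4*, *Klf6*, *Klf7* and *Klf9*), compared with 19.7% of all protein-coding genes and 55.2% of the 7836 genes with a promoter peak. At 3 genes (*Klf3*, *Klf12* and *Klf13*) it lay in a gap with a peak on either side within 3 kb. Such gaps were found at 263 genes, or 1.2% of all and 3.24% of those with a promoter peak. The median gap was 1380 bp with a GC content of 64.5%, so the gaps of *Klf3* and *Klf12* were shorter than this median and that of *Klf13* was longer. The smallest gap between any peaks of the set was 1000 bp, so shorter gaps could not be seen. GC content around the start, in 500 bp before and after it, was 59.0% to 69.4% at the 5 covered starts and 61.9% to 75.7% at the 3 starts in gaps, and these ranges overlap. A part of GC content in the gaps was not tested. With the midpoint of the peak within 1 kb of a TSS as the rule, 6 genes had a promoter peak (*Klf2*, *Klf4*, *Klf6*, *Klf7*, *Klf9* and *Klf13*), against 33.9% of all genes. That count was 4 with midpoints within 500 bp of a TSS and 4 with the 5′ end of the gene as the only TSS. Shares of all genes under these changed rules were not computed.

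Promoter peaks of the *Klf* genes were wide. The widest of each gene ranged from 1340 to 10592 bp with a median of 3527 bp, compared with a median of 1348.5 bp over the 7836 genes. Only 0.0510% of these genes had a promoter peak at least as wide as that of *Klf3*. The corresponding shares were 0.957% for *Klf9*, 1.15% for *Klf2*, 1.39% for *Klf4*, 5.27% for *Klf6* and 6.51% for *Klf7*. Promoter peaks of *Klf3*, *Klf5* and *Klf12* counted only through a base within 1 kb of a TSS and not by midpoint. The 10592-bp peak of *Klf3* began 804 bp after the 5′ end, and its midpoint was 2851.5 bp from the nearest TSS. *Klf12* and *Klf5* were less extreme but above the median, with 23.3% and 28.4%, and *Klf13* lay near the median, with 50.2%. A width of at least 3 kb was reached by 6 genes (*Klf2*, *Klf3*, *Klf4*, *Klf6*, *Klf7* and *Klf9*), compared with 3.35% of all genes. *Klf7*, at 3326 bp, was nearest above this limit and *Klf12*, at 2226 bp, nearest below it.

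**Figure D3:**
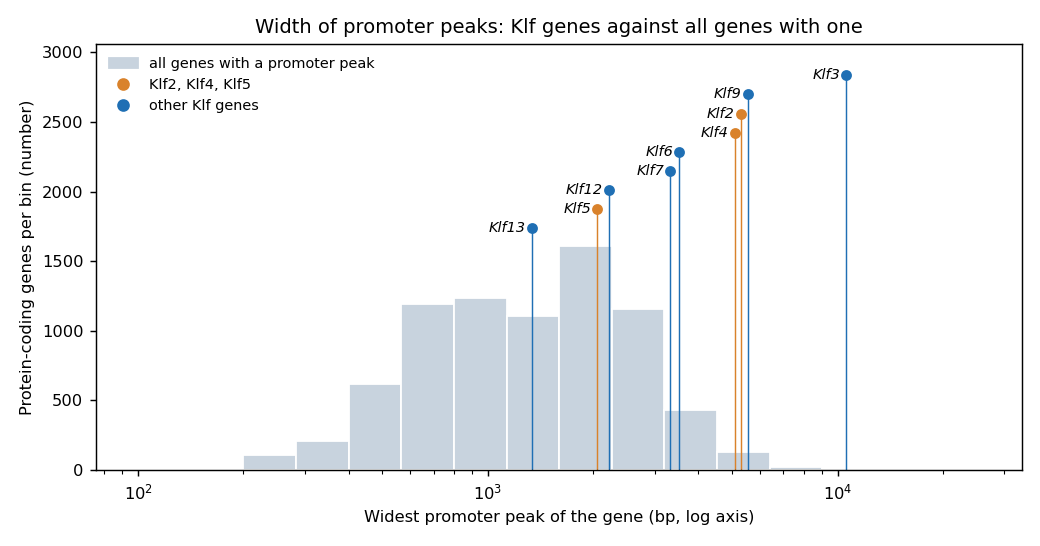
Width of the widest promoter peak per gene. Bars give the number of protein-coding genes in each width bin on a log axis in bp, and pins mark the *Klf* genes (orange, stem cell members; blue, others) with heights that carry no value. *Klf3* stands at 10592 bp beyond nearly all genes, with a peak that began 804 bp after its 5′ end. *Klf13* stands at 1340 bp near the median of 1348.5 bp.

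The promoters of all 10 genes were CpG-rich, with a ratio of observed to expected CpG over 0.6 and *Klf12* lowest at 0.625. Such promoters carry peaks more often, so the 10083 CpG-rich genes are the closer background. Of these, 60.4% had a promoter peak and 5.83% had one of at least 3 kb, compared with 9 and 6 of the 10 *Klf* genes. How much of the width goes with CpG content beyond this was not tested.

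At least 1 distal peak was found in the window of 7 genes, compared with 27.0% of all genes, and at least 3 in the windows of 6, compared with 3.35%. The median was 3 distal peaks per gene (range 0 to 8), against a median of 0 and a mean of 0.413 over all genes. As many as the 8 of *Klf9* were found at 0.0547% of genes. The 6 of *Klf5* were reached by 0.246%, the 4 of *Klf2* and of *Klf13* by 1.28%, the 3 of *Klf3* and of *Klf4* by 3.35%, and the 2 of *Klf6* by 8.62%. Since long genes have longer windows, counts were also taken per 100 kb of window. They were 4.79 for *Klf9*, 3.84 for *Klf5*, 2.80 for *Klf2*, 2.08 for *Klf13*, 2.06 for *Klf4*, 1.77 for *Klf3* and 1.34 for *Klf6*. *Klf9* and *Klf5* thus led by either count, and the long genes *Klf7* and *Klf12* and the shorter *Klf10* had none.

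**Figure D4:**
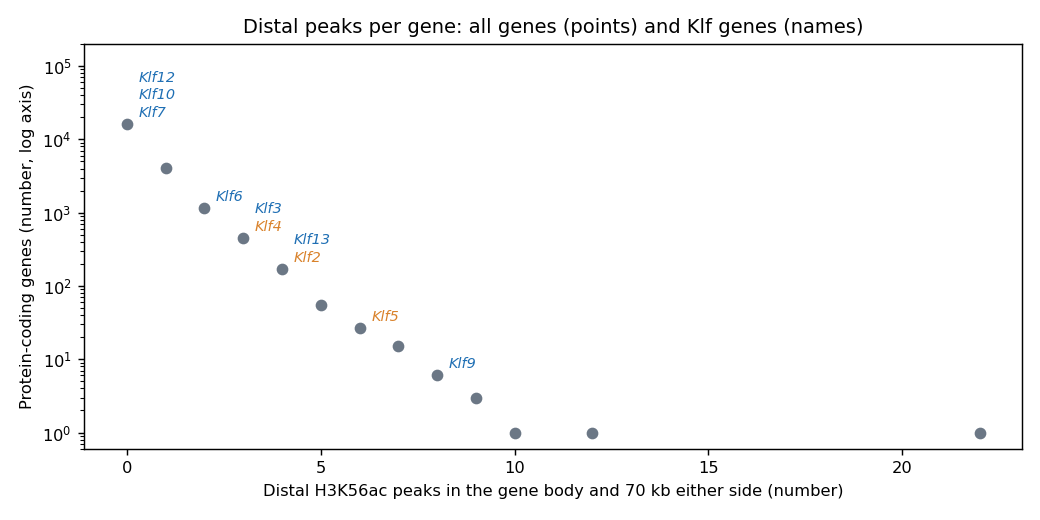
Distal peaks per gene. Points give the number of protein-coding genes (vertical log axis) with each number of distal peaks in the gene body and 70 kb on either side, and names mark the *Klf* genes (orange, stem cell members; blue, others). *Klf9* with 8 and *Klf5* with 6 stand among few genes, and *Klf7*, *Klf10* and *Klf12* are at 0 with most genes.

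Of the 30 distal peaks, 25 lay in intergenic sequence and 5 in introns, and the *Klf* gene itself was the nearest coding gene for 25. The same shares over all distal peaks were not computed, and few other coding genes had a TSS in these windows, as listed below. The midpoints of the 30 peaks were a median of 43709 bp from the 5′ end. The median width was 773 bp (274 to 7585 bp), against 639.5 bp over all 3382 distal peaks. Widths of at least 3 kb were found for 4 of them, at *Klf2* (3360 bp), *Klf4* (7585 bp), *Klf9* (6258 bp) and *Klf13* (3001 bp), so 4 of 10 genes had such a peak, compared with 1.98% of all genes. The 3001-bp peak of *Klf13* was just above the limit and the 2983-bp peak of *Klf9* just below it. Other coding genes with a TSS in a window numbered 5, namely *Ap1m1*, *Gm10282* and *Eps15l1* beside *Klf2*, *Smc5* beside *Klf9* and *E030018B13Rik* in *Klf13*, and of these *Eps15l1* had a promoter peak. Midpoints of 6 distal peaks were within 1 kb of the TSS of a non-coding gene, meaning any gene not annotated as protein-coding. The same share over all distal peaks was not computed. Activity of these 6 as promoters cannot be told apart from that of distal elements.

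The stem cell members were then set against the other 7. All of *Klf2*, *Klf4* and *Klf5* had both promoter and distal peaks, while 6 of the 7 others had a promoter peak and 4 a distal one. The median promoter peak was 5078 bp (2055 to 5290 bp) for the stem cell members and 3426.5 bp (1340 to 10592 bp) for the others, a difference of 1651.5 bp between ranges that overlap. The sign of this difference turned, to -255 bp, when peaks closer than 3 kb were joined, because *Klf3* then reached 17873 bp, *Klf9* 13180 bp, *Klf6* 6136 bp and *Klf12* 4530 bp while no stem cell member changed. Distal peaks numbered a median of 4 (3 to 6) at the stem cell members and 2 (0 to 8) at the others, and these ranges overlap as well. *Klf9*, which is not a stem cell member, exceeded all of them in distal peaks and in promoter width.

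The side of the gene also differed in number. Of the 13 distal peaks of the stem cell members, 1 lay upstream of the 5′ end and 12 downstream, whereas the others had 10 upstream and 7 downstream. *Klf9* alone gave 6 of these 10. The peaks of 1 gene share a locus, so these counts rest on 3 genes and on 4 genes, respectively. The window reached 70 kb before the 5′ end but took in the body and 70 kb after it, which favours downstream counts. The same split over all genes was not computed. The nearest coding gene was the *Klf* gene itself for 11 of 13 distal peaks at the stem cell members and 14 of 17 at the others.

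Motifs were searched on both strands in the 400 bp around the midpoint of each peak. The KLF box GGGNGTGG occurred in 8 of 43 member peaks (18.6%, Wilson 95% interval 9.74 to 32.6%), compared with 16.9% of all peaks, which lay inside this interval. The octamer occurred in 3 peaks (6.98%, 2.40 to 18.6%), compared with 1.52% of all peaks. These 3 were the peaks of *Klf9* at -50.5 kb and of *Klf13* at -18.4 and 29.3 kb shown above, and none was at a stem cell member. STAT palindromes occurred in 2 (4.65%, 1.28 to 15.5%), at *Klf3* and *Klf5*, compared with 1.65%. The ESRRB motif occurred in 1 (2.33%, 0.412 to 12.1%), the *Klf9* peak at 34.1 kb, where it is repeat-masked, compared with 1.01%. The AP-1 motif TGANTCA occurred in 5 (11.6%, 5.07 to 24.5%), compared with 9.19%. The SOX-POU composite motif occurred in 0 (up to 8.20%), compared with 0.0630%. Intervals cover counting error only, and peaks of 1 gene are not independent.

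**Figure D5:**
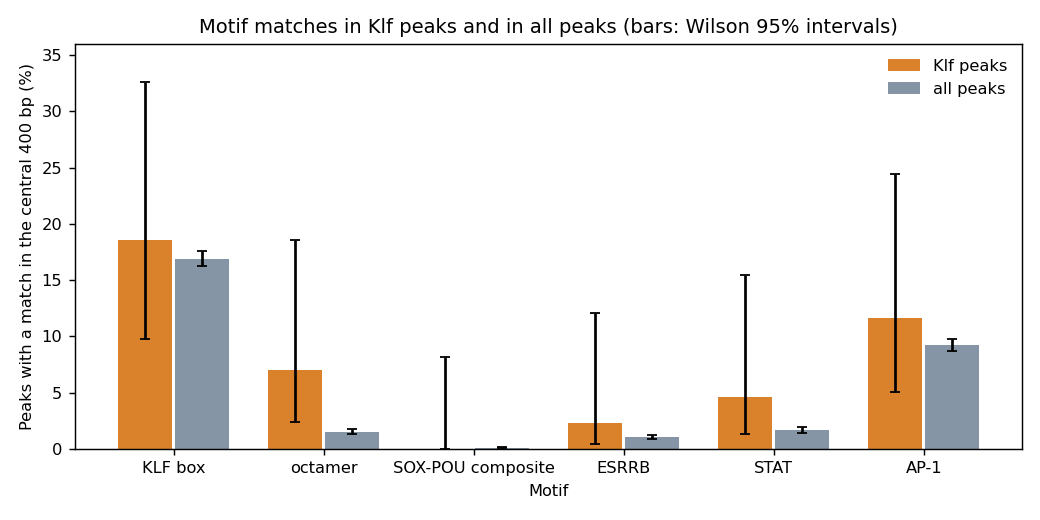
Share of peaks with a motif in the 400 bp around the midpoint, in percent, for the 43 *Klf* peaks (orange) and all 11106 peaks (grey). Error bars are Wilson 95% intervals. The octamer is the motif whose interval at the *Klf* peaks, 2.40 to 18.6%, lies above the share in all peaks, and it rests on 3 peaks.

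Over whole peaks the KLF box matched 50 times in the 84879 bp of member peaks, or 0.589 per kb, against 0.510 per kb over all peaks. Of these 50 matches 28 were in repeat-masked sequence, compared with 39.4% of matches in all peaks. The 6258-bp peak of *Klf9* held 8 boxes, the 10592-bp peak of *Klf3* 7 and the promoter peak of *Klf2* 6, while the promoter peak of *Klf6* held 0. The octamer matched 5 times (0.0589 per kb against 0.0435), the STAT palindrome 7 times (0.0825 against 0.0420) and the ESRRB motif 5 times (0.0589 against 0.0301). None of the octamer and STAT matches was repeat-masked, compared with 15.3% of octamer and 12.6% of STAT matches in all peaks. Of the ESRRB matches 3 of 5 were, those of *Klf5* at 27.1 kb and of *Klf9* at 4.01 and 34 kb, compared with 43.8%. With so few matches, these counts do not set the *Klf* peaks apart from all peaks.

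Further genes of the pathway are given by count. Of 16 further KLF and SP genes, 6 had a promoter peak, near the 35.7% of all genes, namely *Klf1* (731 bp), *Klf11* (414 bp), *Klf16* (2654 bp), *Sp2* (2585 bp), *Sp3* (1007 bp) and *Sp4* (1416 bp). Their median was 1211.5 bp and 0 of 16 reached 3 kb, against 3.35% of all genes. A distal peak was found at 8 of 16, against 27.0% of all genes. Windows of *Sp1* and *Sp7* overlap, as do those of *Sp2* and *Sp6*, so the same peak can count for both genes of a pair. Only 9 of the 16 had a CpG-rich promoter, compared with all 10 members, and the part of this difference in the counts was not tested. Of 11 genes for cofactors of Kruppel-like factors, 9 had a promoter peak, all but *Sin3b* and *Wwp1*, compared with 35.7% of all genes and 60.4% of CpG-rich genes, and 10 of the 11 were CpG-rich. Widths differed between related genes. Of the genes for CTBP, the partner of KLF3 and KLF12, *Ctbp2* had 6756 bp and *Ctbp1* 360 bp. The acetyltransferase gene *Ep300* had 3894 bp and its relative *Crebbp* 795 bp, while *Sin3a*, whose product binds KLF9, KLF10 and KLF13, had 4719 bp. The median was 1719 bp and 3 of 11 genes reached 3 kb, compared with 3.35% of all and 5.83% of CpG-rich genes.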

How the data were processed

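H3K56ac ChIP-seq of V6.5 cells was sequenced as single-end reads. The authors trimmed reads, aligned them to mm10 with bowtie, keeping reads with 1 reportable place, removed duplicates and ran MACS2, then dropped blacklisted regions and merged overlaps, which hides library, group and height. Identical repeats can thereby lack peaks. The deposited file gives positions, and its score column is 0 throughout and was used for no value. The smallest gap between peaks was 1000 bp, so closer peaks may have been joined and widths may include sequence between them. Counts per library and the test between groups by the authors are not analysed here, so the planned comparison of Scramble with Sirt6KD was not run. The deposited file gives no depth, and library depths listed by the study were not used here.

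Positions were converted to count from 1 and joined to GENCODE M21 genes on GRCm38, where 0 peaks passed a chromosome end. All transcripts of the 21938 protein-coding genes gave TSS. The CpG ratio covered 500 bp before and after the start of the gene, and repeats were the lower-case bases of the reference. All 10 members were named, and of the other lists the genes with a promoter peak or coding neighbours. Members and lists were chosen with earlier results of these data known. No test was made. Shares have Wilson 95% intervals. Alternatives covered flanks, TSS rules, the distal limit, joining and motif windows. Checked on simulated data, 200 of 200 planted peaks and 600 of 600 motifs were found. Python 3.11.15, numpy 2.4.6, scipy 1.17.1 and matplotlib 3.10.9 were used.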

Additional observations from a re-analysis of the deposited data

How the results depend on the processing

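Of 29 alternatives, 16 were labelled as leaving a value the same or close to it, 12 as moving it and 1 as turning its sign. The first label was loose. It took in changes from 43 member peaks to 39 or 46 and from 6 members with a promoter peak to 9 or 4. The difference in median promoter width between stem cell members and others, 1651.5 bp, was 1757.5 bp with midpoints within 1 kb, 1752 bp with summed promoter peaks and *Klf10* at 0, and -255 bp with peaks closer than 3 kb joined. The median promoter width of 3527 bp was 4302.5 bp with midpoints and 5078 bp with joining. Members with a promoter peak by midpoint, 6 within 1 kb, were 10 within 3 kb, 9 by any base within 1 kb, 4 within 500 bp and 4 with the 5′ end as the only TSS. Shares of all genes within 3 kb, within 500 bp and with the 5′ end alone were not computed. The median of 3 distal peaks per gene was 2 with flanks of 50 kb, 3.5 with a distal limit of 1 kb, 2 with 10 kb, 1.5 with joining, and 2 when counting those nearest to the gene itself. The difference of 2 distal peaks between stem cell members and others became 3 with flanks of 50 kb. The KLF box share of 18.6% was 41.9% in 1000 bp, where all peaks had 39.5%, and the longer window itself adds matches. The summed widths and the nearest-gene rule were chosen after seeing the data. No paired analysis was possible because peaks were merged over libraries without values for each of them, though Scramble and Sirt6KD have the same replicate numbers, and leaving out a replicate was likewise not run. Reads per region were not analysed here, which limits what the absence of a peak at *Klf10* or in the gaps can say.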

Other observations

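Beyond the 70-kb windows, 3 further peaks lay within 100 kb of a *Klf* gene. *Klf9* had one of 749 bp at -83.1 kb (chr19:23057752-23058500), again with *Klf9* as the nearest coding gene. *Klf2* had one of 2309 bp at 102 kb (chr8:72419989-72422297), nearest to *Eps15l1*, and *Klf13* one of 250 bp at 127 kb (chr7:63811687-63811936), nearest to *Otud7a*. With flanks of 100 kb the members would hold 46 peaks, and with flanks of 50 kb 39 peaks.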
